A study of Rattus norvegicus with 9 samples.

Results

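The response of cultured rat dendritic cells to lipopolysaccharide (LPS) was described from RNA sequencing of 3 LPS and 3 Control cultures, which are 6 of the 9 libraries of the series. Genes entered the comparison if their level was 1 FPKM or more in at least 3 of the 9 libraries, as 11141 of 20442 genes in the table did. FPKM counts fragments relative to gene length and to the size of the library. The cells were primary cells from the bone marrow of wild-type rats, grown with 10% serum and with GM-CSF and IL-4 at 20 ng/mL each. Strain, age and sex of the rats are not given in the labels. Control cultures were untreated and LPS cultures received LPS at 1 µg/mL, with a treatment time of 24 h. A further 3 cultures, given LPS together with extracellular vesicles, were not compared here. They entered the choice of tested genes and the estimate of the spread between replicates. The alternative fits, except that on the 6 compared libraries alone, and the correlations between samples also used them. The treatment note, the same on each of the 9 samples, also lists 50 ng/mL of an agent that it does not name. Whether the Control or the LPS cultures received it cannot be told from the labels. If LPS cultures did and Control cultures did not, the effects of LPS and of that agent cannot be told apart. The replicates are labelled as biological, but nothing ties them to separate animals, so p-values measure only the spread between these cultures. In bulk RNA, fewer cells of a type and less RNA per cell cannot be told apart.

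LPS is a cell wall lipid of Gram-negative bacteria that is bound by Cd14 and sensed through the receptor Tlr4. Its signals pass through MyD88 to the transcription factor NF-kB and through TRIF to interferon regulatory factors. Dendritic cells that sense LPS are known to cut back the uptake of antigen, to release cytokines and to move toward lymph nodes, and bone marrow grown with GM-CSF holds dividing precursors and macrophages beside the dendritic cells.

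Assigned reads numbered 32957420 to 39407116 in the 6 libraries, and 9846 to 10821 genes reached 1 FPKM in each. For a gene of 1 kb, 3 reads correspond to 0.076 to 0.091 FPKM, a floor that covers counting error only. The dendritic cell integrin Itgax was present in each library at 31.1 to 52.0 FPKM, while the markers Flt3, Xcr1 and Clec9a stood at 0.437 FPKM or less. The other 11 of the 14 dendritic cell markers entered the test. They ran from Zbtb46, at 1.41 to 2.75 FPKM, to Cd74, at 939 to 6140 FPKM. Among the 9 macrophage markers, all of which entered the test, Cd68 stood at 403 to 591 FPKM and Csf1r at 90.4 to 180.2 FPKM. Adgre1 (3.59 to 44.5 FPKM) and Ccr2 (0.295 to 12.9 FPKM) were lower, so the cultures carry markers of both cell types at varied levels. No marker of T, NK or B cells with a value in the table entered the test, and Cd2, at 2.02 FPKM in LPS replicate 3, was the highest of them. Cd3e, Cd3g, Prf1, Ms4a1 and Jchain were not analysed here. Neutrophil markers summed to 265, 31.2 and 127 FPKM in Control replicates 1, 2 and 3 and to 7.42, 1.94 and 3.67 FPKM in LPS, with Mpo and Elane at 0.802 FPKM or less throughout. Stromal markers, led by the collagens Col1a1 and Col1a2, summed to 351, 143 and 454 FPKM in Control and to 676, 84.8 and 360.5 FPKM in LPS, lowest in both groups in replicate 2. The MHC class II gene RT1-Ba stood at 51.3, 460.1 and 53.8 FPKM in Control and at 8.72, 261 and 11.5 FPKM in LPS, highest in replicate 2 of each group. Triplets of values below follow the order of replicates 1, 2 and 3.

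LPS changed 4569 of the 11141 genes (41%) at an adjusted p under 0.05, with 1368 genes higher (12.3%) and 3201 lower (28.7%). Of these, 548 rose by at least 2-fold (4.92%) and 1406 fell by at least 2-fold (12.6%). The balance narrowed at larger sizes, where 143 genes rose and 303 fell by at least 4-fold, and 19 rose and 20 fell by at least 16-fold. Changes are differences between group means of log2(FPKM + 1), called log2 changes here, which understate the change of genes near 0. The median gene stood at -0.19 under the deposited scaling and at 0.00 after median-of-ratios scaling, a shift of 0.19. Under that scaling 1893 genes rose and 2332 fell, so that 44.8% of the called genes were higher in place of 29.9%. In 4557 of the 4569 called genes each of the 3 same-numbered pairs moved in the called direction. The call on these same values largely requires this, so it is no separate evidence. In 6138 of the 11141 genes (55.1%) the 3 LPS values did not overlap with the 3 Control values, so such separation was common.

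**Figure D1:**
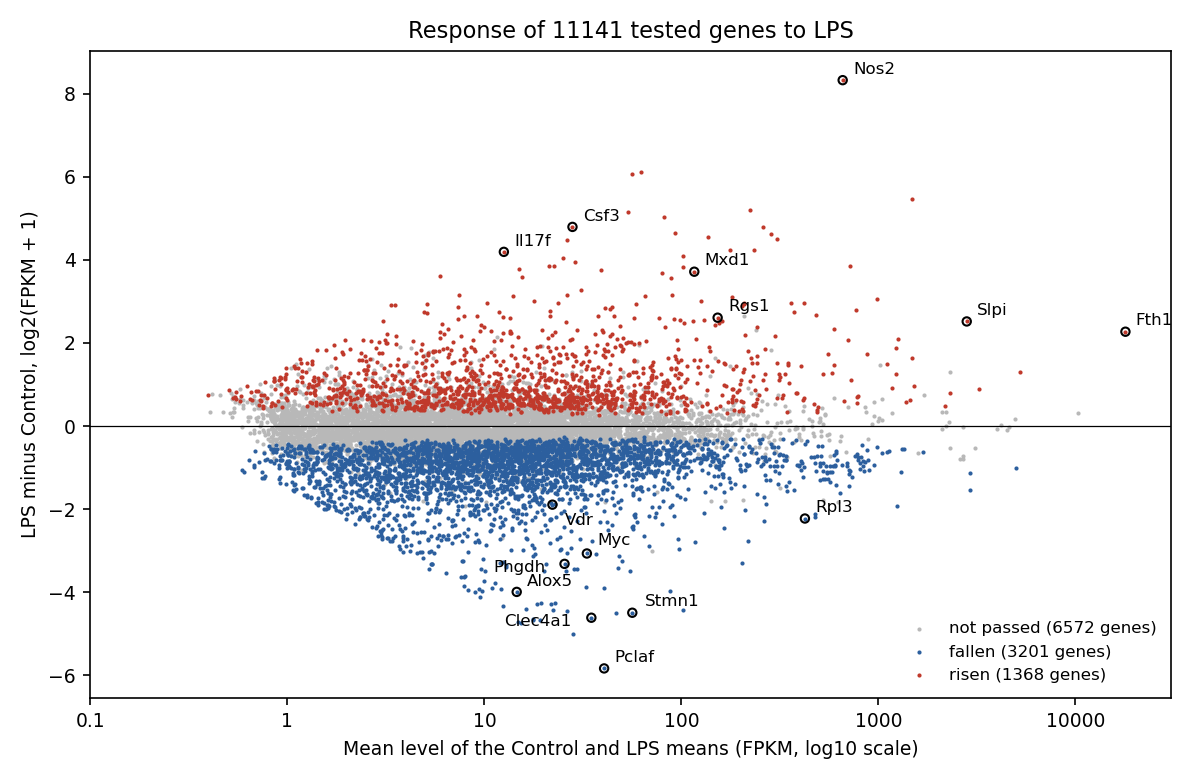
Each point is 1 of the 11141 tested genes, placed by the average of its Control and LPS means (FPKM, log10 axis) and by its log2 change. Red points (1368) rose, blue points (3201) fell and gray points (6572) did not pass. Of the tested genes Nos2, at 8.33, stands highest and Pclaf, at -5.84, lies lowest.

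Only 2 genes were below 1 FPKM in each Control library and at 10 FPKM or more in each LPS library: the interleukin-12 subunit Il12b and the neutrophil-recruiting cytokine Il17f. Il17f was at 0.413, 0.212 and 0.217 FPKM in Control and at 36.0, 11.2 and 27.3 FPKM in LPS, a log2 change of 4.19 (SE 0.38, adjusted p = 9.06e-05). The groups stood far apart and replicate 2 had the lowest LPS level. Csf3, the growth factor for neutrophils, went from 1.07, 0.191 and 1.35 to 64.0, 23.0 and 78.4 FPKM (log2 4.79, SE 0.44, adjusted p = 9.33e-05), a 63.4-fold higher mean, again lowest in replicate 2. Lcn2, which withholds iron from bacteria by binding their siderophores, rose from 6.62, 2.50 and 10.3 to 198, 97.6 and 239.9 FPKM (log2 4.65, SE 0.49, adjusted p = 0.000212). All 3 of these genes were lowest in replicate 2 of LPS, and none of the 3 had a Control value near the LPS range.

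Further members of the 20 largest rises were Nos2, Il12b, Csf2, Il1b, Cxcl1, Ptges, Il6, Ifit3, Cxcl2, Rsad2, Il1a, Ppbp, Ccl5, Ptgs2, Ebi3, Cxcl6 and Wfdc21. Rsad2, the antiviral enzyme viperin, rose from 3.74, 21.6 and 9.50 to 183, 407 and 194 FPKM (log2 4.56, SE 0.64, adjusted p = 0.000903), and replicate 2 was the highest of each group. Wfdc21, a small secreted protein of the whey acidic family, rose from 3.58, 0.247 and 3.46 to 57.6, 17.0 and 90.3 FPKM (log2 3.96, SE 0.71, adjusted p = 0.00281). Cxcl6, a chemokine that attracts neutrophils, stood at 1.03, 0.179 and 0.723 FPKM in Control and at 54.9, 2.61 and 90.7 FPKM in LPS. LPS replicate 2 lay closest to Control, and the call (log2 4.04, SE 1.13, adjusted p = 0.021) ended without any 1 of the 3 Control libraries or without LPS replicate 1 or 3 (adjusted p of 0.0515 to 0.0686). The Cxcl6 call also ended without a filter on low values (adjusted p = 0.0533) and with limma-voom on recovered reads (adjusted p = 0.187). Ppbp, a platelet and myeloid chemokine precursor, rose to 38.9, 5.19 and 112 FPKM from 0.721, 0 and 0.434 FPKM (log2 4.49, SE 1.02, adjusted p = 0.00894, and 0.107 with limma-voom on recovered reads).

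Among the most abundant transcripts the iron-storage subunit Fth1 took the most assigned reads of any gene in each LPS library. It rose from 6490.5, 5604 and 6144 to 33682, 33545 and 22249 FPKM (log2 2.27, SE 0.22, adjusted p = 0.000124), and the light subunit Ftl1 rose from 3208, 2703 and 2925 to 6707, 10223 and 5478 FPKM (log2 1.30, SE 0.26, adjusted p = 0.00507). Without a filter on low values the adjusted p of Fth1 was 0.0936 and that of Ftl1 0.0662. In Control the mitochondrial gene COX1 took the most reads, a count that is not scaled to gene length. The 100 genes with the most reads took 21.99% to 22.53% of reads in Control and 24.48% to 29.68% in LPS. Slpi, a secreted inhibitor of neutrophil elastase, went from 1000.1, 219 and 1918 to 5077, 2578 and 6060.1 FPKM (log2 2.52, SE 0.71, adjusted p = 0.0214). Leaving out LPS replicate 1 or 3 ended this call (adjusted p = 0.0606 and 0.0589). Actb, the cytoskeletal actin often used as a reference gene, fell from 3989, 4086 and 3875 to 1572, 1625 and 2357 FPKM (log2 -1.13, SE 0.17, adjusted p = 0.0014). The glycolytic enzyme Gapdh, another common reference gene, rose from 1919, 1552 and 1621 to 3141, 3139.9 and 2498 FPKM (log2 0.78, SE 0.15, adjusted p = 0.00457). These 2 reference genes therefore moved in opposite directions.

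The reverse pattern, at 10 FPKM or more in each Control library and below 1 FPKM in each LPS library, was found in 20 genes. Most of the 20 belong to cell division: Birc5, Bub1, Bub1b, Ccna2, Ccnb1, Ccnb2, Cdca3, Cenpt, Gins1, Kif20a, Kif23, Kif2c, Nusap1, Pclaf, Racgap1, Shcbp1 and Top2a. The other three were the neutrophil chemokine receptor Cxcr2, the secreted protein Fam3b and Tifab, a relative of the signalling adaptor Tifa. Pclaf, a partner of the replication clamp PCNA, fell from 90.4, 74.1 and 77.3 to 0.389, 0.164 and 0.779 FPKM (log2 -5.84, SE 0.33, adjusted p = 7.29e-06). Tifab fell from 10.5, 28.1 and 18.5 to 0.0148, 0.156 and 0.0446 FPKM (log2 -4.12, SE 0.31, adjusted p = 3.32e-05). Neither gene had an LPS value within 10-fold of its lowest Control value.

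The 20 largest falls included Pclaf, Ube2c, Kif20a, Racgap1, Top2a, Ccna2, Ccnb2, Clec4a1, S100a8, Stmn1, Cdk1, Cdc20, Hba-a2, Ccnb1, Cdca3, Rrm2, Plk1, Mki67 and Tifab. Cdk1, the kinase that drives entry into mitosis, fell from 55.1, 46.3 and 51.4 to 0.990, 1.5 and 1.59 FPKM (log2 -4.47, SE 0.23, adjusted p = 4.13e-06). Stmn1, which destabilises microtubules, fell from 93.1, 110.3 and 123 to 3.23, 3.69 and 4.69 FPKM (log2 -4.50, SE 0.20, adjusted p = 2.52e-06). Both were steady across the Control replicates. Clec4a1, a C-type lectin receptor of myeloid cells, fell from 65.5, 52.7 and 85.7 to 1.08, 2.47 and 1.90 FPKM (log2 -4.62, SE 0.23, adjusted p = 3.73e-06). Near-identical copies in the Clec4a family and among globin genes such as Hba-a2 can share reads, so the split within those families is uncertain. S100a8, a calcium-binding protein abundant in neutrophils, was at 187, 6.75 and 81.6 FPKM in Control and at 2.78, 0.386 and 0.946 FPKM in LPS (log2 -4.51, SE 1.09, adjusted p = 0.0116, and 0.116 with limma-voom on recovered reads). S100a8 made up most of the summed neutrophil markers of Control replicates 1 and 3 given above. Csf3r, S100a9 and Camp had the same replicate order in Control, while Cxcr2 did not, at 18, 21.2 and 15.9 FPKM. The part of neutrophils in the fall of S100a8 was not tested.

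Promoter sequence was available for 9125 of the 11141 tested genes (81.9%), from RefSeq on build GRCr8, as a window of 250 bases before to 50 bases after the first listed start. Windows were searched on both strands for a kappaB site, the element bound by NF-kB dimers, and for the cell cycle genes homology region (CHR, TTTGAA or TTCGAA), an element of genes expressed late in the cell cycle. Of the 20 largest rises named above, 15 had a window and 5 of these held a kappaB match. Of the 20 largest falls, 14 had a window and 7 of these held a CHR match. Named genes without a window were not searched. The sequences below are the 250 bases before the start of the 3 largest rises that hold a kappaB match (Cxcl1, Il6 and Lcn2) and of the 3 largest falls that hold a CHR match (Top2a, Ccnb2 and Clec4a1). They are written 5′ to 3′ on the strand of the gene, with capitals marking the match. Cxcl1 lies at chr14:17479322-17479571 on the minus strand, Il6 at chr4:5894576-5894825 on the minus strand, Lcn2 at chr3:36081781-36082030 on the minus strand, Top2a at chr10:84473094-84473343 on the minus strand, Ccnb2 at chr8:79981659-79981908 on the minus strand and Clec4a1 at chr4:157845561-157845810 on the plus strand.
Cxcl1: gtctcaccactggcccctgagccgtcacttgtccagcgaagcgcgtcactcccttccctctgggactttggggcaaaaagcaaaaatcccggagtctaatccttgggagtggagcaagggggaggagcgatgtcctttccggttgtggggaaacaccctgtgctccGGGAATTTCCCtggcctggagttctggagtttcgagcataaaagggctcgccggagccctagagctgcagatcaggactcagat
Il6: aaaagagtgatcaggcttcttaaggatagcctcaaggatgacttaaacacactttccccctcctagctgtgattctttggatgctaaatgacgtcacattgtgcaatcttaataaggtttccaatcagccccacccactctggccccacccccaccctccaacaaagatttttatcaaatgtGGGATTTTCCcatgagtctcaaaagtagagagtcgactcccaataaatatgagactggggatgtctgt
Lcn2: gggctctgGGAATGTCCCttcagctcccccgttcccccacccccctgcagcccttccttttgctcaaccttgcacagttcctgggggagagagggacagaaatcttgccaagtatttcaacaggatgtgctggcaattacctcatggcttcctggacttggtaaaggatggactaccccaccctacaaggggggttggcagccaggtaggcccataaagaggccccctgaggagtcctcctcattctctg
Top2a: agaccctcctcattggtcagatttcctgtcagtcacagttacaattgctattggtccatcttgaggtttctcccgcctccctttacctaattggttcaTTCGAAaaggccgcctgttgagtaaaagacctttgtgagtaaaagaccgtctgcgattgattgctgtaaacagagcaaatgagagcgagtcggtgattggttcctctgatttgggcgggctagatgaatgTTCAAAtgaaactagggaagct
Ccnb2: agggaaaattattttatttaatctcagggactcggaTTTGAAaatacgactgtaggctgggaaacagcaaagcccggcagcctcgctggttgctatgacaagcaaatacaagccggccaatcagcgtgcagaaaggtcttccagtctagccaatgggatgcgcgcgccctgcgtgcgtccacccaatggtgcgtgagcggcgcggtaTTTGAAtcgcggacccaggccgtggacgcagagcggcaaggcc
Clec4a1: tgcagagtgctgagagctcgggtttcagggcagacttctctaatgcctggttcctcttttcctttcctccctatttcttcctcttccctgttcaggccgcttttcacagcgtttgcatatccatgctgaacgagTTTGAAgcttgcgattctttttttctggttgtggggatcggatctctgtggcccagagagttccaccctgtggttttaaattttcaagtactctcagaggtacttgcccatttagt

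In Cxcl1, a neutrophil chemokine with a log2 change of 5.2, matches on the 2 strands overlapped at positions -84 to -75 and -83 to -74 relative to the start. The match of the cytokine Il6 (5.03) lay at -68 to -59, and that of Lcn2 (4.65) at -242 to -233. Top2a, the topoisomerase that untangles chromosomes (-4.68), held CHR letters at -152 to -147, where they read the same on both strands, and at -22 to -17. The mitotic cyclin gene Ccnb2 (-4.65) held them at -214 to -209 and at -43 to -38. Clec4a1, which is not a cell division gene, held 1 match at -116 to -111. A 6-base element is short, and the CHR was present in 13.9% of promoters of tested genes, so single matches describe letters and not sites.

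Across groups, a kappaB match was present in 12.9% of 101 promoters of genes that rose by at least 4-fold, in 7.73% of 1087 promoters of all risen genes and in 4.98% of promoters of tested genes. The interferon-stimulated response element (ISRE, searched as 2 GAAA blocks with any 2 bases between) gave 11.9%, 6.62% and 3.27% for the same groups, and the TATA box (TATAAA) gave 25.7%, 9.94% and 6.79%. All 3 motifs were thus more frequent in the larger rises. Those promoters also differed in base composition, with a median GC of 54.7% against 60.7% in promoters of tested genes. In the larger rises the median ratio of observed to expected CpG was 0.466 against 0.781, and 17.8% of promoters held the CHR. The part of base composition in these shares was not tested. Among 249 promoters of genes that fell by at least 4-fold the CHR was present in 34.9%, the CCAAT box in 54.6% and an E2F element (TTTGGCGC, TTTCCCGC or TTTGCCGC) in 8.03%, against 13.9%, 38.4% and 3.69% of promoters of tested genes. Over all 27457 promoters in the reference the CHR share was 19.5%, the TATA box share 14.3% and the kappaB share 4.16%, so tested genes differ from the whole set before any response. The groups at 4-fold were added after the values were seen, and the shares are descriptions with no test.

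**Figure D2:**
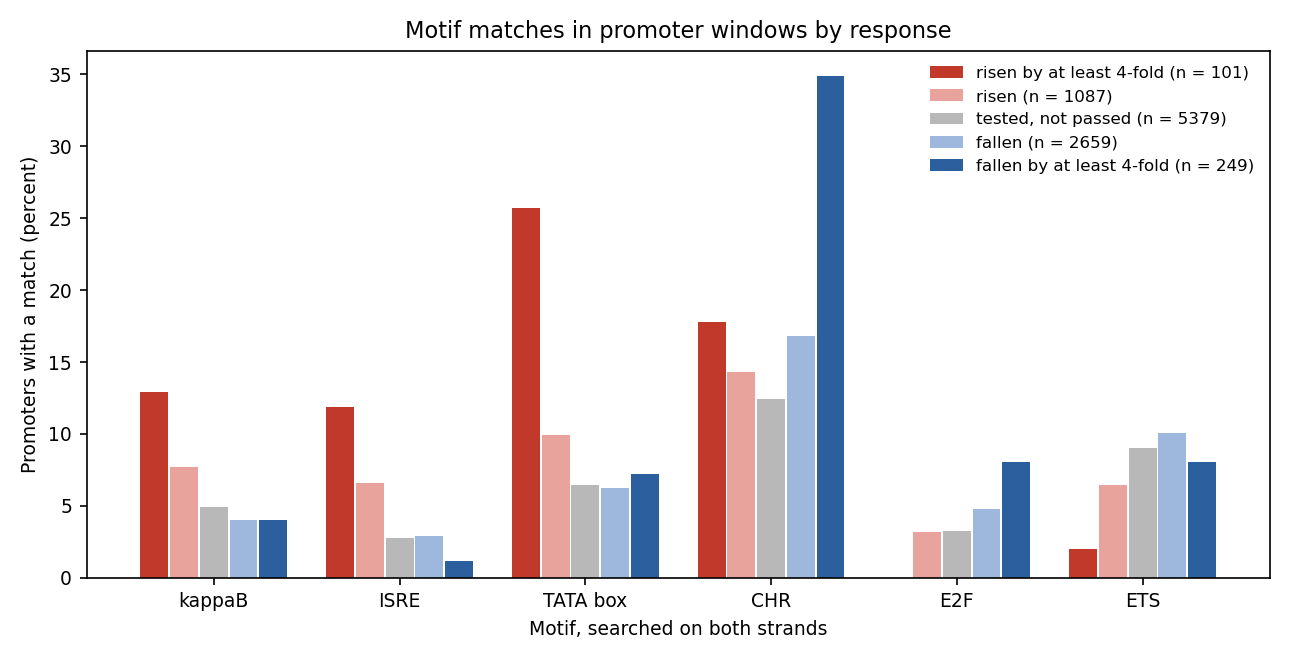
Bars give the percentage of RefSeq promoter windows that hold each motif on either strand, for genes grouped by their response to LPS (colours, with the number of promoters). The kappaB, ISRE and TATA bars are highest in genes that rose by at least 4-fold (12.9%, 11.9% and 25.7%), and the CHR bar is highest in genes that fell by at least 4-fold (34.9%).

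Gene lists were then read by their counts beside those of all tested genes, of which 12.3% rose and 28.7% fell with a median log2 change of -0.19. A gene could enter the test through the group where it was high, so counts cover tested members and not whole lists. Across the 38 lists the share of tested members that fell ran from 5.13% (autophagy machinery) to 94.8% (cytosolic ribosomal proteins).

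**Figure D3:**
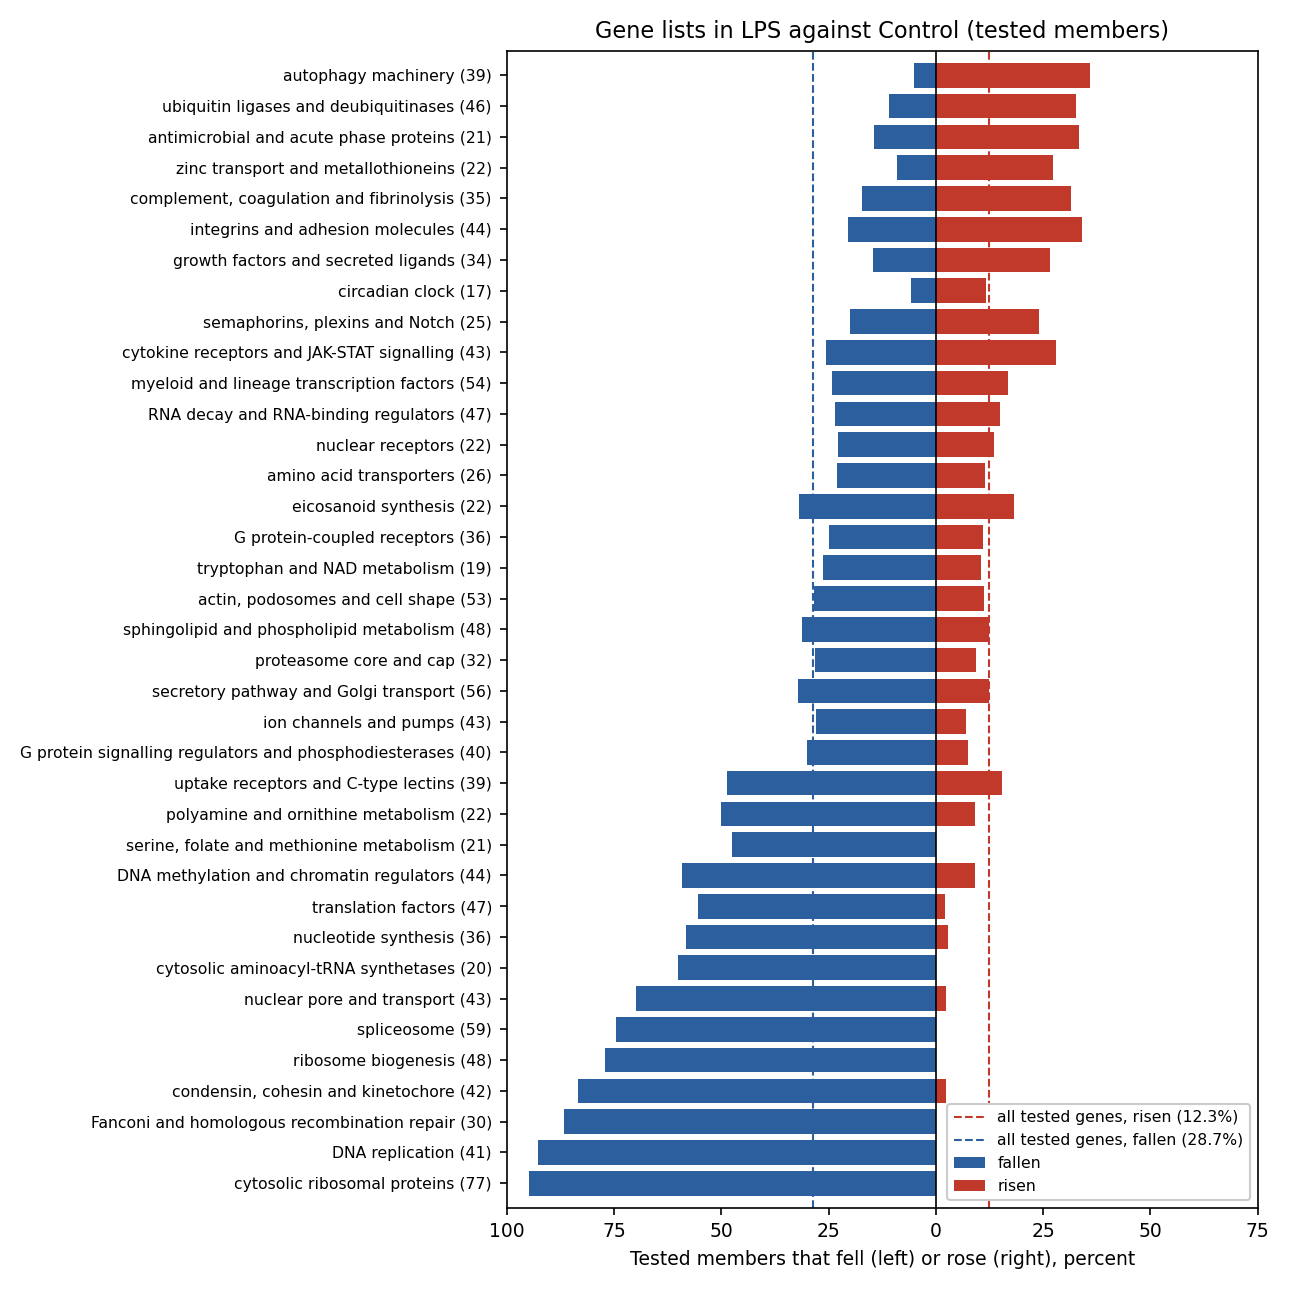
For each gene list shown, with the number of tested members in brackets, bars show the percentage that fell (left, blue) and rose (right, red) with LPS. Dashed lines mark the shares of all tested genes, 28.7% fallen and 12.3% risen. Ribosome, replication and chromosome lists fill the left side (94.8% of ribosomal proteins fell), while autophagy machinery has 35.9% risen and 5.13% fallen.

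Of 77 tested cytosolic ribosomal protein genes, 73 fell (94.8%) and none rose, with a median log2 change of -0.95, and 57 fell after median-of-ratios scaling. Rpl3, a protein of the large subunit near the peptidyl transferase centre, fell from 769, 673 and 637 to 138, 221 and 103 FPKM (log2 -2.23, SE 0.25, adjusted p = 0.000257). Rps2, of the small subunit, fell from 880.2, 806 and 745 to 366, 304 and 287 FPKM (log2 -1.34, SE 0.12, adjusted p = 0.000102). The 2 groups did not overlap for either gene, as in 55.1% of all tested genes, and LPS replicate 2 was not the lowest for Rpl3. Ribosomal protein genes have many near-identical pseudogenes, so their levels are uncertain.

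Ribosome biogenesis, the set of factors that process ribosomal RNA in the nucleolus, had 37 of 48 tested genes lower (77.1%), none higher and a median of -1.36. The count of falls was 22 without Control replicate 1 and 24 without Control replicate 3. Nop56, a core protein of the particles that methylate ribosomal RNA, fell from 44.1, 44.6 and 43.2 to 9.68, 4.32 and 16.1 FPKM (log2 -2.18, SE 0.40, adjusted p = 0.00312). Nhp2, shared by those that make pseudouridine, fell from 125, 105 and 101 to 23.5, 6.86 and 27.4 FPKM (log2 -2.65, SE 0.49, adjusted p = 0.00342). LPS replicate 2 was the lowest library for both genes. Myc, a transcription factor known to drive ribosome production, fell from 63.0, 56.7 and 60.2 to 6.81, 7.07 and 5.05 FPKM (log2 -3.07, SE 0.21, adjusted p = 1.78e-05).

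Of 20 cytosolic aminoacyl-tRNA synthetases, which load amino acids onto tRNA, 12 fell (60%) and none rose, with a median of -0.78. Gars, for glycine, fell from 89.2, 91.0 and 81.0 to 40.2, 17.6 and 38.0 FPKM (log2 -1.50, SE 0.34, adjusted p = 0.00852). Among 47 translation factors 26 fell (55.3%) and 1 rose, the initiation factor Eif1, from 252, 293 and 303 to 534, 394 and 549 FPKM (log2 0.79, SE 0.18, adjusted p = 0.00814). Median-of-ratios scaling and the fit without LPS replicate 2 raised the risen count to 3 and 2. Eef1b2, an exchange factor of elongation, went the other way, from 228, 201 and 223 to 67.7, 75.6 and 88.6 FPKM (log2 -1.49, SE 0.13, adjusted p = 7.76e-05).

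In RNA splicing, 44 of 59 tested spliceosome genes fell (74.6%) and none rose, with a median of -0.85 (with the replicate block 1 rose). Lsm2, of the ring that binds U6 RNA, fell from 42.8, 37.1 and 36.2 to 9.26, 6.80 and 7.09 FPKM (log2 -2.19, SE 0.18, adjusted p = 5.07e-05), and Prpf19, a ubiquitin ligase of the active spliceosome, fell by 1.97 on the log2 scale (SE 0.36, adjusted p = 0.00328). In the nuclear pore and transport list 30 of 43 fell (69.8%). Rcc1, the exchange factor that loads Ran with GTP, fell from 17.7, 17.8 and 14.9 to 1.84, 0.696 and 2.81 FPKM (log2 -2.75, SE 0.30, adjusted p = 0.000245). The scaffold nucleoporin Nup85 fell by 2.50 on the log2 scale (SE 0.33, adjusted p = 0.000616). Of 32 proteasome core and cap genes 9 fell (28.1%) and 3 rose (9.38%) under the deposited scaling, near the shares of all tested genes. Only 2 fell after median-of-ratios scaling. There the list's median moved from -0.19 to 0.02, and that of all tested genes from -0.19 to 0.00. None of the 3 rose without Control replicate 3 or LPS replicate 1, and 1 rose without Control replicate 2 or LPS replicate 2.

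Most tested genes that copy and separate chromosomes fell. In DNA replication 38 of 41 tested genes fell (92.7%), none rose and the median was -1.67. Mcm5, a subunit of the helicase that opens the double helix, fell from 57.9, 56.3 and 43.5 to 2.96, 6.97 and 2.71 FPKM (log2 -3.44, SE 0.34, adjusted p = 0.000144), and its partner Mcm7 fell by 3.50 on the log2 scale (SE 0.33, adjusted p = 0.000114). Of 42 condensin, cohesin and kinetochore genes 35 fell (83.3%). Bub1b, a spindle checkpoint protein, fell from 22.1, 17.2 and 18.2 to 0.236, 0.448 and 0.166 FPKM (log2 -3.97, SE 0.15, adjusted p = 1.24e-06). The 1 gene of that list that rose was Zwint, another kinetochore protein, from 37.0, 39.0 and 44.4 to 87.3, 62.9 and 97.3 FPKM (log2 1.00, SE 0.17, adjusted p = 0.0019), a call kept under each of the 14 alternatives.

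Most tested genes for the repair of DNA crosslinks and breaks also fell. Of 30 tested Fanconi and homologous recombination genes 26 fell (86.7%), none rose and the median was -1.10 (1 rose after median-of-ratios scaling, with the replicate block or without LPS replicate 2). Fancd2, a central protein of the Fanconi pathway, fell from 8.59, 7.63 and 7.37 to 0.682, 1.17 and 0.402 FPKM (log2 -2.36, SE 0.20, adjusted p = 6.76e-05). Of 44 tested DNA methylation and chromatin regulators 26 fell (59.1%) and 4 rose, all 4 of them histone demethylases (Kdm4a, Kdm5b, Kdm5c and Kdm7a). Leaving out replicate 1 of either group left 1 rise, and leaving out Control replicate 2 or 3 or LPS replicate 3 left 2. Kdm4a kept its call throughout, at 17.6, 18.5 and 16.4 FPKM in Control and 24.1, 25.1 and 22.0 FPKM in LPS (log2 0.42, SE 0.10, adjusted p = 0.0118). Uhrf1, which brings maintenance methylation to newly copied DNA, fell from 33.8, 36.6 and 27.0 to 2.80, 3.10 and 2.45 FPKM (log2 -3.14, SE 0.14, adjusted p = 2.77e-06).

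Of 36 tested nucleotide synthesis genes 21 fell (58.3%) and 1 rose (2 after median-of-ratios scaling, with the replicate block or without LPS replicate 2). Tk1, thymidine kinase, fell from 27.1, 22.0 and 21.8 to 0.314, 1.12 and 0.518 FPKM (log2 -3.92, SE 0.22, adjusted p = 7.25e-06). The gene that rose was Ada, which breaks down adenosine, from 18.1, 14.8 and 13.8 to 21.6, 21.8 and 24.7 FPKM (log2 0.52, SE 0.12, adjusted p = 0.0112).

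Of 21 tested genes of serine, folate and methionine metabolism 10 fell (47.6%) and none rose, with a median of -0.55. Phgdh, the first enzyme of serine synthesis, fell from 50.5, 57.0 and 34 to 5.59, 2.64 and 3.37 FPKM (log2 -3.32, SE 0.35, adjusted p = 0.000196). Psat1, the next enzyme of the path, fell from 47.9, 44.3 and 38.6 to 6.15, 2.48 and 6.23 FPKM (log2 -2.98, SE 0.38, adjusted p = 0.000531). Both were lowest in LPS replicate 2. Ahcy, which clears the by-product of methylation, fell by 2.40 on the log2 scale (SE 0.19, adjusted p = 5e-05), as did Shmt1, which feeds serine carbon to folate, by 2.30 (SE 0.33, adjusted p = 0.000926).

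In polyamine and ornithine metabolism 11 of 22 tested genes fell (50%). Srm, spermidine synthase, fell from 74.4, 65.3 and 64.5 to 18.2, 4.89 and 23.2 FPKM (log2 -2.30, SE 0.56, adjusted p = 0.0116), lowest again in LPS replicate 2. The 2 risen genes, Smox and Azin1, lost their calls without Control replicate 1 or 3 or LPS replicate 1, and 4 genes rose with the replicate block. Of 26 tested amino acid transporters 6 fell (23.1%) and 3 rose (11.5%), near the 28.7% and 12.3% of all tested genes. With the replicate block 5 rose, and the fallen count was 2 without Control replicate 1 and 3 without Control replicate 2. Slc7a2, an arginine carrier, rose from 45.5, 63.2 and 34.6 to 296, 472 and 308 FPKM (log2 2.89, SE 0.31, adjusted p = 0.000213). The glutamine carrier Slc1a5 fell from 69.4, 78.9 and 74.7 to 21.7, 7.98 and 25.9 FPKM (log2 -2.09, SE 0.40, adjusted p = 0.00413). In NAD metabolism Nampt, the rate-limiting enzyme of the salvage path, rose from 47.2, 40.5 and 56.1 to 93.6, 165 and 130.3 FPKM (log2 1.39, SE 0.30, adjusted p = 0.00729), and Parp1, a DNA repair enzyme that consumes NAD, fell by 1.67 (SE 0.20, adjusted p = 0.000437).

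Of 22 tested eicosanoid synthesis genes 7 fell (31.8%, near the 28.7% of all tested genes) and 4 rose (18.2%), and with the replicate block 13 fell. Arachidonic acid is turned into leukotrienes by Alox5, with its membrane partner Alox5ap and then Lta4h, and into prostaglandins by Ptgs2 and Ptges. Alox5 fell from 43.4, 18.5 and 23.2 to 0.681, 1.69 and 0.140 FPKM (log2 -4, SE 0.40, adjusted p = 0.000152). Alox5ap fell from 106, 60.3 and 98.7 to 7.87, 6.25 and 7.45 FPKM (log2 -3.41, SE 0.26, adjusted p = 3.1e-05). Lta4h fell from 480.0, 212 and 328 to 62.7, 119 and 65.5 FPKM (log2 -2.01, SE 0.32, adjusted p = 0.00161). These 3 genes were each highest in Control replicate 1 and lowest there in replicate 2. No LPS value reached the Control range, and 55.1% of all tested genes likewise had no overlap between groups. The summed neutrophil markers were also lower in LPS and highest in Control replicate 1, and their part in these values was not tested. Of the genes for prostaglandins, Ptgs2 rose from 26.7, 4.14 and 28.2 to 395, 153 and 449 FPKM (log2 4.23, SE 0.66, adjusted p = 0.00147) and Ptges from 3.82, 0.218 and 2.85 to 137, 62.0 and 116 FPKM. Ptgis, which makes prostacyclin, moved the other way, from 2.63, 2.41 and 3.90 to 0.218, 0.0153 and 0.0146 FPKM (log2 -1.86, SE 0.17, adjusted p = 0.0001). Cyp4f18, of a family that inactivates leukotriene B4, rose by 1.87 on the log2 scale (SE 0.31, adjusted p = 0.00183). The receptor Cysltr1, which binds cysteinyl leukotrienes, fell from 3.22, 3.10 and 3.96 to 0.0816, 0.102 and 0.0972 FPKM (log2 -2.01, SE 0.13, adjusted p = 1.44e-05).

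**Figure D4:**
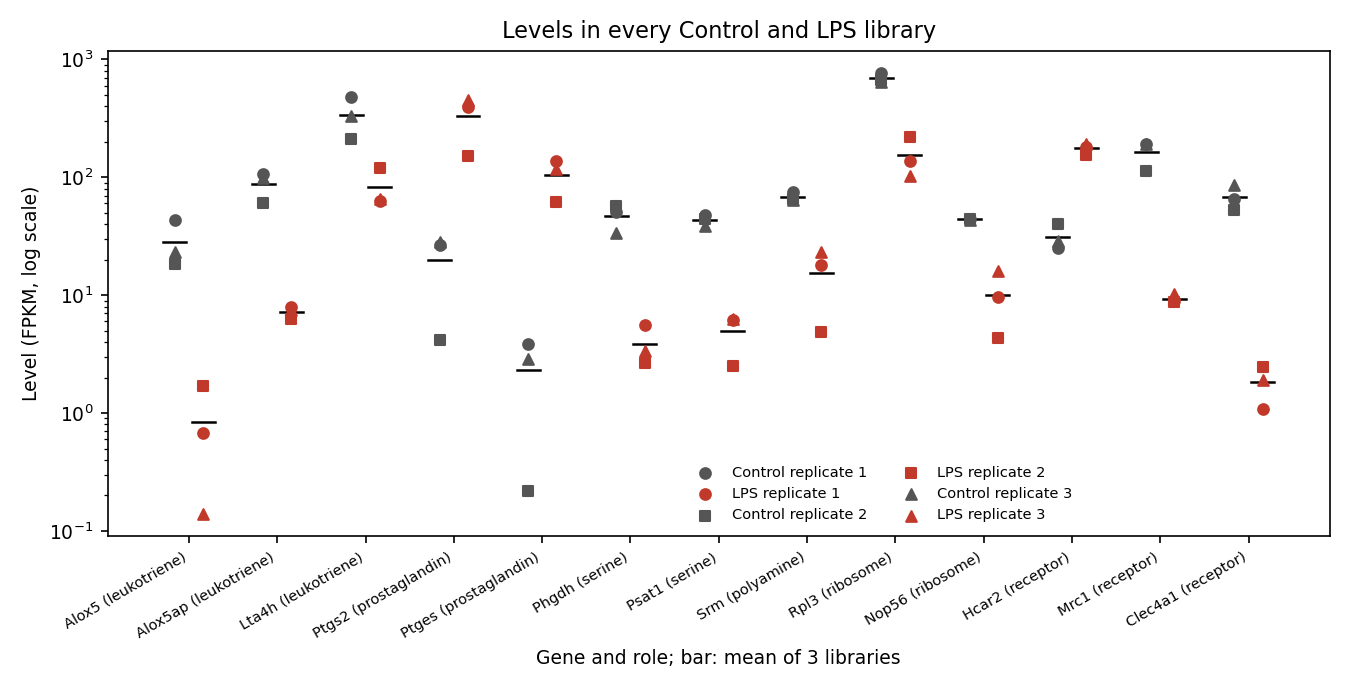
Points give the FPKM (log axis) of 13 genes in each Control (gray) and LPS (red) library, with a symbol for each replicate number and a bar at the mean of 3 libraries. The leukotriene, serine, polyamine and ribosome genes, Mrc1 and Clec4a1 are lower in LPS, and Ptgs2, Ptges and Hcar2 are higher. Levels of different genes are comparable only because FPKM is scaled to gene length.

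Among G protein-coupled receptors 4 of 36 rose (11.1%) and 9 fell (25%), near the 12.3% and 28.7% of all tested genes. With the replicate block 9 of them rose, while over all tested genes the risen count went from 1368 to 1912. Hcar2, which binds niacin and the ketone body beta-hydroxybutyrate, rose from 25, 40.3 and 28.7 to 180.1, 154 and 192 FPKM (log2 2.47, SE 0.17, adjusted p = 2.21e-05). The adenosine receptor Adora2a rose from 4.62, 5.06 and 5.72 to 32.2, 47.3 and 33.7 FPKM (log2 2.64, SE 0.24, adjusted p = 9.58e-05). These rises did not overlap with Control in any library, and 55.1% of all tested genes had no overlap in either direction. Gpr84, a receptor for medium-chain fatty acids, fell from 6.59, 5.45 and 4.89 to 0.396, 0.191 and 0.976 FPKM (log2 -2.15, SE 0.22, adjusted p = 0.000181). Of 40 tested G protein signalling regulators and phosphodiesterases 3 rose (7.5%) and 12 fell (30%, near the share of all tested genes). After median-of-ratios scaling or with the replicate block 6 rose, and 7 fell without Control replicate 3. Rgs1, which speeds the shut-off of G proteins, rose from 26, 64.9 and 40.3 to 293, 180.3 and 312 FPKM (log2 2.61, SE 0.33, adjusted p = 0.000539), while Rgs18 fell from 39.7, 30.6 and 43.3 to 3.47, 10.2 and 2.27 FPKM (log2 -2.82, SE 0.46, adjusted p = 0.00174). Pde4b, which breaks down cyclic AMP, rose by 2.06 on the log2 scale (SE 0.25, adjusted p = 0.00046).

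Receptors for uptake of particles and sugars fell more often than they rose. Of 39 tested uptake receptors and C-type lectins 19 fell (48.7%) and 6 rose (15.4%), with a median of -0.62 (3 rose without Control replicate 1 or LPS replicate 1). Mrc1, the mannose receptor, fell from 192, 114 and 189.7 to 8.85, 8.70 and 10.2 FPKM (log2 -3.98, SE 0.20, adjusted p = 3.63e-06). Clec4a3, a relative of Clec4a1, fell from 50.1, 53.5 and 83.7 to 2.65, 4.20 and 2.92 FPKM (log2 -3.88, SE 0.26, adjusted p = 1.71e-05). Among sialic acid receptors, Siglec5 rose from 24.5, 2.51 and 10.0 to 82.4, 46.3 and 61.6 FPKM (log2 2.66, SE 0.66, adjusted p = 0.0132) and Siglec10 by 1.95 (SE 0.47, adjusted p = 0.0116). The macrophage markers Cd163 and Ccr2 also fell, by 2.50 (SE 0.60, adjusted p = 0.0109) and by 2.73 (SE 0.49, adjusted p = 0.00298), while the LPS co-receptor Cd14 rose by 1.26 (SE 0.22, adjusted p = 0.00235). Over the macrophage list 5 of 9 tested markers fell and 2 rose, and its summed level was 1210 to 1316 FPKM in Control and 1214 to 1738 FPKM in LPS. The 2 that rose, Cd14 and Cd68, carried most of the LPS sum, at 741, 930 and 547 FPKM and at 542, 591 and 493 FPKM. The call of Cd68 ended without any 1 of the Control libraries (adjusted p of 0.0683 to 0.131).

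Of 35 tested complement, coagulation and fibrinolysis genes 11 rose (31.4%) and 6 fell (17.1%), and 17 rose with the replicate block. The subunits of C1q, which starts the classical pathway, fell together. C1qb went from 70.0, 95.7 and 103 to 3.89, 21.0 and 6.72 FPKM (log2 -3.25, SE 0.65, adjusted p = 0.00472), C1qc by -3.07 and C1qa by -2.36 on the log2 scale (adjusted p = 0.0033 and 0.00523). Properdin, Cfp, which stabilises the alternative pathway, fell from 212, 127 and 182 to 19.3, 27.7 and 16.7 FPKM (log2 -2.97, SE 0.23, adjusted p = 3.43e-05). Tissue factor, F3, the trigger of coagulation, rose from 2.73, 2.61 and 1.35 to 32.0, 12.8 and 19.9 FPKM (log2 2.75, SE 0.31, adjusted p = 0.000296). Cd55, which protects cells from complement, rose from 12, 10.7 and 15 to 57.5, 62.5 and 79.2 FPKM (log2 2.31, SE 0.17, adjusted p = 2.5e-05).

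Among 44 tested integrins and adhesion molecules 15 rose (34.1%) and 9 fell (20.5%), with a median of 0.24. Vcam1, an adhesion molecule that binds leukocyte integrins, rose from 0.270, 0.272 and 1.46 to 9.96, 10.9 and 7.79 FPKM (log2 2.73, SE 0.31, adjusted p = 0.000302). Itgb8, part of the integrin that releases active TGF-beta, rose from 0.198, 0.175 and 0.226 to 6.09, 5.28 and 6.27 FPKM (log2 2.52, SE 0.21, adjusted p = 5.16e-05). Jaml, an adhesion molecule of migrating leukocytes, fell from 57.3, 70.0 and 103 to 4.23, 2.83 and 5.39 FPKM (log2 -3.90, SE 0.31, adjusted p = 4.38e-05). The groups were apart for all 3 genes, as they were for 55.1% of all tested genes. E-cadherin, Cdh1, fell by 1.61 on the log2 scale (SE 0.34, adjusted p = 0.00612).

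Of 34 tested growth factors and secreted ligands 9 rose (26.5%) and 5 fell (14.7%), with a median of 0.63. With the replicate block 16 rose, and 17 rose without LPS replicate 2. Inhba, the subunit of activin A, rose from 9.69, 13.5 and 8.72 to 175, 115 and 157 FPKM (log2 3.69, SE 0.27, adjusted p = 2.6e-05). Gdf15, a stress hormone, rose from 37.5, 35.4 and 32.9 to 384, 400.0 and 199 FPKM (log2 3.12, SE 0.24, adjusted p = 4.34e-05). Lif, a cytokine of the interleukin-6 family, rose from 3.91, 1.45 and 4.22 to 40.7, 19.2 and 38.2 FPKM (log2 3.01, SE 0.35, adjusted p = 0.000357). Igf1 went down, from 61.5, 55.3 and 87.6 to 12.6, 29.6 and 19.5 FPKM (log2 -1.73, SE 0.34, adjusted p = 0.00433), and 3 members in place of 5 fell without Control replicate 1. Stromal marker levels, given above, were lowest in replicate 2 of each group, and their part in the levels of these ligands was not tested.

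Antimicrobial and acute phase genes included 7 rises (33.3%) and 3 falls (14.3%) in 21 tested genes (7 fell with the replicate block and 5 without Control replicate 2). The gene listed in the table as Saal1 carries the identifier of serum amyloid A3 in RefSeq, and it rose from 8.56, 2.58 and 3.09 to 77.9, 98.0 and 43.4 FPKM (log2 3.76, SE 0.44, adjusted p = 0.000353). Among cytokine receptors and JAK-STAT genes 12 of 43 rose (27.9%) and 11 fell (25.6%), against 12.3% and 28.7% of all tested genes. Il1rn, the natural blocker of the interleukin-1 receptor, rose from 208, 342 and 246 to 900.0, 1632 and 885 FPKM (log2 2.07, SE 0.33, adjusted p = 0.00175). Il1r2, a decoy receptor for the same cytokine, fell from 32.2, 13.1 and 19.6 to 1.89, 2.29 and 2.50 FPKM (log2 -2.73, SE 0.30, adjusted p = 0.000238). Both genes restrain interleukin-1, and they moved in opposite directions. Socs3, a feedback inhibitor of JAK kinases, rose by 1.64 (SE 0.28, adjusted p = 0.00209).

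Of 54 tested lineage transcription factors 9 rose (16.7%) and 13 fell (24.1%), against 12.3% and 28.7% of all tested genes. The risen count was 15 with the replicate block, 3 without Control replicate 1 and 4 without Control replicate 3. Irf7, the amplifier of type I interferon, rose from 38.8, 194 and 93.8 to 578, 1025 and 577 FPKM (log2 2.96, SE 0.52, adjusted p = 0.00261). Maff, a small Maf factor, rose by 1.74 (SE 0.30, adjusted p = 0.00243). Mybl2, which acts in the cell cycle, fell from 23.7, 16.4 and 15.9 to 1.28, 0.675 and 1.40 FPKM (log2 -3.21, SE 0.27, adjusted p = 5.8e-05). In the nuclear receptors 5 of 22 fell (22.7%) and 3 rose (13.6%), which became 3 and 4 after median-of-ratios scaling. The risen count was 6 with the replicate block, 1 without Control replicate 1 or 3 or LPS replicate 3, and 0 without LPS replicate 1. The vitamin D receptor Vdr fell from 35.0, 31.3 and 39.6 to 8.25, 12.2 and 6.55 FPKM (log2 -1.89, SE 0.21, adjusted p = 0.00028), and the lipid sensor Pparg from 13.4, 8.96 and 6.91 to 1.94, 4.35 and 0.823 FPKM (log2 -1.77, SE 0.40, adjusted p = 0.00864). Of 25 tested semaphorin, plexin and Notch genes 6 rose (24%) and 5 fell (20%), or 10 and 2 after median-of-ratios scaling. Without Control replicate 1 or 3 or LPS replicate 3 the fallen count was 3. The Notch ligand Jag1 rose from 2.97, 7.12 and 3.88 to 13.1, 38.6 and 23.2 FPKM (log2 2.14, SE 0.44, adjusted p = 0.00575), and Rbpj, the DNA-binding partner of Notch, and Hes1, a known Notch target, rose by 1.18 and 1.51 (adjusted p = 0.00197 and 0.000605). The receptor Notch1 fell from 16.8, 21.6 and 18.4 to 11.1, 10.3 and 14 FPKM (log2 -0.64, SE 0.17, adjusted p = 0.0149), a call that was lost after median-of-ratios scaling (adjusted p = 0.0569) and on leaving out Control replicate 2 (0.0542).

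Autophagy genes leaned upward. Of 39 tested genes 14 rose (35.9%) and 2 fell (5.13%), with a median of 0.32. Ulk1, the kinase that starts autophagy, rose from 4.47, 4.09 and 4.24 to 9.86, 15.4 and 7.27 FPKM (log2 1.11, SE 0.23, adjusted p = 0.0051). Atg4c, which processes the membrane tags, rose from 5.2, 4.54 and 7.65 to 19.5, 15 and 22.4 FPKM (log2 1.56, SE 0.21, adjusted p = 0.00067). Tfeb, a transcription factor for lysosome and autophagy genes, was 1 of the 2 that fell, by 0.90 (SE 0.17, adjusted p = 0.0035). Ubiquitin ligases and deubiquitinases also leaned upward, with 15 of 46 risen (32.6%) and 5 fallen (1 fallen without Control replicate 1 or 3 or LPS replicate 1). Herc6, the interferon-induced ligase that attaches Isg15 in rodents, rose from 2.45, 7.62 and 4.72 to 34.7, 51.6 and 28.2 FPKM (log2 2.78, SE 0.43, adjusted p = 0.00136).

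RNA decay genes had 7 of 47 risen (14.9%) and 11 fallen (23.4%), against 12.3% and 28.7% of all tested genes. After median-of-ratios scaling 12 rose and 8 fell, while all tested genes went to 17% risen and 20.9% fallen. Zfp36, which marks cytokine mRNA for decay, rose from 18.8, 22.0 and 19.2 to 69.9, 171 and 44.7 FPKM (log2 1.97, SE 0.47, adjusted p = 0.0106). Zc3h12a, the nuclease regnase-1, rose by 1.92 (SE 0.19, adjusted p = 0.000142). The exosome subunits Exosc5 and Exosc2, which trim RNA from its 3′ end, fell by 2.34 and 2.09 (adjusted p = 0.00152 and 0.00358). Secretory pathway genes had 7 of 56 risen (12.5%) and 18 fallen (32.1%), near the shares of all tested genes. These counts became 12 risen and 8 fallen after median-of-ratios scaling, which moved all tested genes as given above. The fallen count was 8 without Control replicate 1, 9 without Control replicate 3 and 11 without LPS replicate 1. Arf4, a small GTPase of the Golgi, rose from 138, 159 and 172 to 465, 508 and 383 FPKM (log2 1.52, SE 0.17, adjusted p = 0.000302). Rpn1, of the enzyme that attaches sugars in the endoplasmic reticulum, fell from 221, 198 and 198 to 87.6, 56.0 and 87.1 FPKM (log2 -1.44, SE 0.19, adjusted p = 0.000698).

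Under the deposited scaling the counts of changed genes differed between same-numbered pairs, a difference that was not tested. The median-of-ratios factor was 0.843 in LPS replicate 2, against 1.02 and 1.04 in LPS replicates 1 and 3. In Control the factor was 1.09 to 1.14. The part of this scaling in the counts by pair was not tested. By single pairs, 854, 764 and 720 genes were at least 2-fold higher in LPS replicates 1, 2 and 3 and 1499, 2280 and 1189 were at least 2-fold lower, with medians of -0.15, -0.28 and -0.12. Ribosome biogenesis had pair medians of -1.13, -2.08 and -0.78, lowest in replicate 2. Genes with the widest spread inside LPS included Mxd1, a partner of Max that opposes Myc, at 95.7, 531 and 43.5 FPKM against 9.01, 10.2 and 8.01 FPKM in Control (log2 3.72, SE 0.79, adjusted p = 0.00648). Mxd1 was highest in LPS replicate 2. Mmp3, a matrix protease of stromal cells among others, was lowest there, at 316, 18.9 and 248 FPKM against 16.5, 2.18 and 8.59 FPKM in Control (log2 3.84, SE 1.11, adjusted p = 0.0242), and its call ended without Control replicate 2 or 3 or LPS replicate 1 or 3 (adjusted p of 0.0573 to 0.0824). Stromal markers were lowest in the same libraries, and their part in the level of Mmp3 was not tested.

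**Figure D5:**
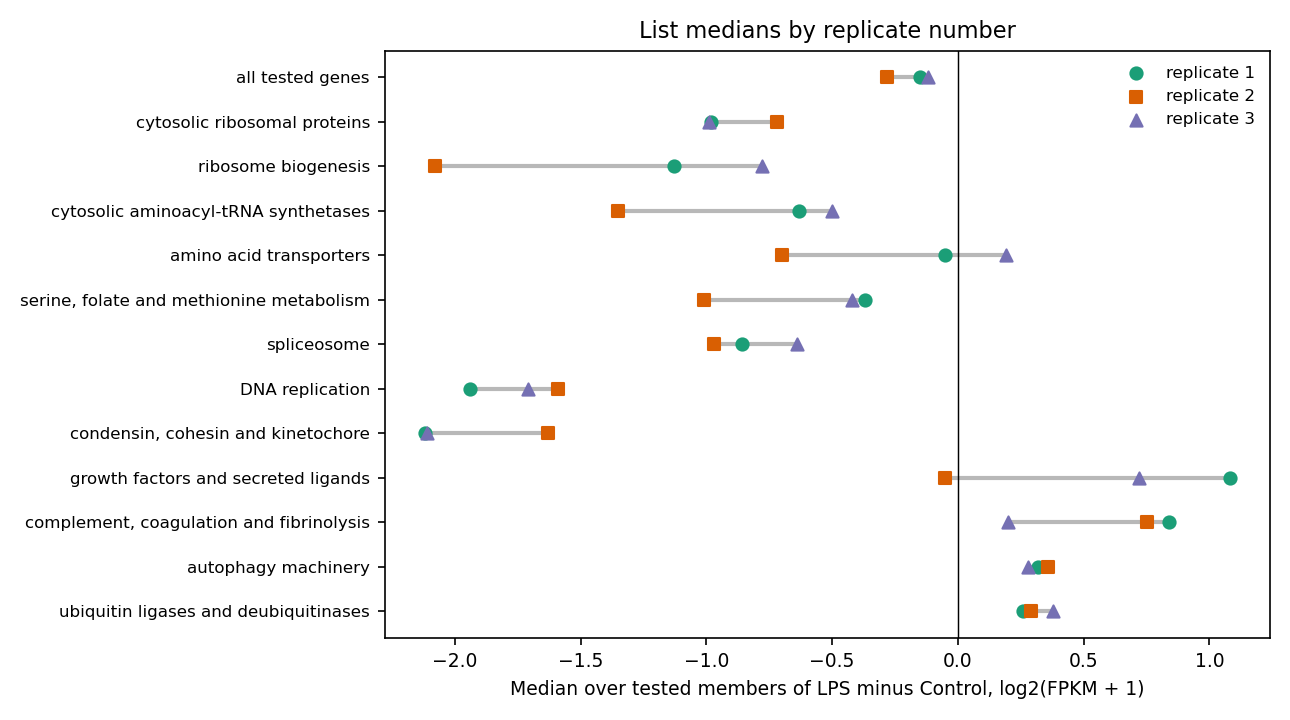
Symbols give, for each replicate number, the median over tested members of LPS minus Control in log2(FPKM + 1), and lines join the lowest and highest of the 3. Under the deposited scaling all tested genes lie at -0.15, -0.28 and -0.12, and ribosome biogenesis spreads from -2.08 in replicate 2 to -0.78 in replicate 3.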

How the data were processed

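The deposited values were FPKM per gene for 9 libraries, which the authors made with fastp, HISAT2 and HTSeq on build mRatBN7.2, per the submitters' processing notes. Strandedness of the counting is not given in the sources used here, so a gene and its antisense partner cannot be told apart. Read numbers were recovered from the FPKM steps for 100% of 18833 genes within 0.002 reads. Genes at 1 FPKM or more in 3 or more libraries were tested on log2(FPKM + 1) with limma 3.58.1 in R 4.3.3 (limma-trend, all 9 libraries, Benjamini-Hochberg adjustment over 11141 genes, adjusted p under 0.05). Adjusted p-values in the text come from this test unless another is named. Tables were made with pandas 2.3.3 in Python 3.11.15 and figures with matplotlib 3.10.9, and the test was first run on simulated data.

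Named genes were the 20 largest rises and falls without overlap between groups and with at least 10 FPKM in the higher group, up to 4 risen and 4 fallen members of each of 38 gene lists, the most abundant genes, cell markers and the genes with the widest LPS spread. Genes that were below 1 FPKM in 1 group and at 10 FPKM or more in the other were named after their values were seen. The comparison, the lists and the members were chosen with earlier results of these data known. Deviations from group means correlated at 0.42, 0.40 and 0.38 between same-numbered Control and LPS samples and at -0.39 to 0.08 between other Control and LPS samples. With the vesicle cultures included, the ranges were 0.28 to 0.86 and -0.74 to 0.43. Deviations cancel out within a group, so higher values for the same number go with lower values for the others. The numbers were taken to pair the samples. This rests on the data, since the labels give only numbers. The main fit held no replicate term, so its counts, SEs and adjusted p-values do not use the pairing. Of the fits, only those with a replicate block use it. Alternatives were median-of-ratios scaling, no filter, 0.1 added before log2, the 6 compared libraries alone, a replicate block with and without that scaling, and leaving out each library. The libraries numbered 1 and 3 alone and limma-voom on recovered reads were chosen after seeing the data. The vesicle cultures were not compared here, and a few genes and 1 list are not reported here. Gene coordinates are not given because the reference (GRCr8) differs from the build of the files, and promoters come from RefSeq on GRCr8.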

Additional observations from a re-analysis of the deposited data

How the results depend on the processing

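The deposited scaling gave 1368 higher and 3201 lower genes, with 548 and 1406 changed by at least 2-fold and 29.9% of the called genes higher. With the replicate block 1912 genes rose and 3949 fell, and the block ended no call among the 296 named genes that had passed. The block together with median-of-ratios scaling gave 2685 higher genes, 850 of them by at least 2-fold, and 48.0% of called genes higher. Leaving out each library in turn gave 923 to 1500 higher and 2215 to 3173 lower genes, 466 to 661 and 1201 to 1622 at 2-fold, and 27.3% to 34% higher. The low ends at 923 and 2215 came without Control replicate 1. Limma-voom on recovered reads gave 1338 higher and 3173 lower genes, and the libraries numbered 1 and 3 alone gave 1765 and 3210. Of the 296 named genes that passed, 225 kept the call under each alternative that tested them and none reversed, with the most calls lost without Control replicate 1 (47). The causes were not tested. The number of libraries limits precision, and genes near 0.076 to 0.091 FPKM rest on about 3 reads per kb.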

Other observations

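Of 261 tested genes that the table lists as non-coding 58 rose (22.2%) and 31 fell (11.9%), with a median log2 change of 0.13, against 1310 risen (12%), 3170 fallen (29.1%) and a median of -0.19 in 10880 protein-coding genes. The difference between the classes was not tested. Mir155hg, the host transcript of miR-155, chosen after its values were seen, rose from 4.12, 8.14 and 9.24 to 18.7, 40.3 and 30.4 FPKM (log2 1.91, SE 0.47, adjusted p = 0.0123). Mtln, chosen in the same way and listed as non-coding although it is known to encode a small mitochondrial protein, fell from 26.1, 23.4 and 22.0 to 9.07, 4.41 and 7.29 FPKM (log2 -1.69, SE 0.25, adjusted p = 0.00121).

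Of 22 tested zinc transport and metallothionein genes 6 rose (27.3%) and 2 fell (9.09%). The counts were 3 risen and 1 fallen without any 1 of the Control libraries, and 2 risen and 1 fallen without LPS replicate 1. Slc39a8, which brings zinc into the cytosol, rose from 11.5, 6.98 and 12.1 to 46.2, 41.0 and 49.6 FPKM (log2 2.09, SE 0.27, adjusted p = 0.000535), and Slc39a10, another importer, fell from 3.74, 5.12 and 3.83 to 2.05, 1.75 and 1.61 FPKM (log2 -0.89, SE 0.14, adjusted p = 0.00176). The copper pump Atp7a rose by 1.69 (SE 0.29, adjusted p = 0.00238). Among 43 tested ion channels and pumps 3 rose (6.98%) and 12 fell (27.9%), against 12.3% and 28.7% of all tested genes. Atp2a3, which pumps calcium into the endoplasmic reticulum, fell from 6.15, 9.68 and 6.74 to 0.25, 0.323 and 0.110 FPKM (log2 -2.78, SE 0.18, adjusted p = 1.45e-05), and Atp2b4, which pumps calcium out of the cell, rose from 2.44, 2.74 and 2.12 to 7.43, 4.8 and 10.4 FPKM (log2 1.26, SE 0.26, adjusted p = 0.00549). The water and glycerol channel Aqp3 fell by 2.56 (SE 0.40, adjusted p = 0.00144).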
